A study of Rattus norvegicus with 32 samples.

Results

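Carbenoxolone (CB), given before a traumatic brain injury (TBI), was compared with saline in CA3 neurons of the rat hippocampus taken 24 h later. The comparison rests on 4 of the study's 16 RNA pools, which are 2 TBI+CB pools and 2 TBI pools, each hybridized to duplicate arrays, so that 8 of the 32 arrays belong to it. They were chosen by their labels for treatment and time, and no measured value was used.

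CB is a derivative of a licorice compound that inhibits 11β-hydroxysteroid dehydrogenase (11βHSD), the enzyme family that interconverts active and inactive glucocorticoids. In neurons the type 1 enzyme mainly regenerates active corticosterone, so its inhibition lowers the hormone that reaches the glucocorticoid and mineralocorticoid receptors inside the cell. CB also blocks gap junctions and pannexin channels, which carry ions and small molecules between cells or to the outside. CA3 pyramidal neurons are excitatory cells rich in corticosteroid receptors, and they are among the cells most easily lost after fluid percussion injury and after excess glucocorticoid.

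The TBI+CB rats were adult male Sprague-Dawley rats given CB at 30 mg/kg before moderate fluid percussion TBI. The TBI rats had the same injury after saline. As neighbours in the design, TBI+MT rats received metyrapone (MT), which blocks corticosterone synthesis, at 100 mg/kg before the same injury, and Sham rats were operated on without injury. The labels place the injection 90 min before injury and the study's methods give a shorter interval. Neurons were captured by laser from frozen sections, and only Fluoro-Jade-negative cells, those without a stain for degeneration, were collected, so the comparison covers surviving neurons. Each pool held RNA of several rats, and nothing measured the spread between single animals. All rats are of 1 strain and sex.

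Every level below is a spot's intensity divided by the median of its array, and a difference is TBI+CB minus TBI on the log2 scale after averaging the duplicate arrays of a pool. The 2 TBI+CB pools differed in brightness before any comparison. In pool 1 the array medians were 40.7 to 43.8 intensity units and 57.2 to 58.5% of probes were above background. In pool 2 the medians were 9.41 to 9.65 and 30 to 30.2% of probes were above background, the dimmest medians of the 32 arrays. The TBI pools lay between them, with medians of 14.2 to 18.7 and 39.7 to 46.1% of probes above background. Blank spots read 4.7 to 5.62 units on these 8 arrays, so they stood at 0.109 to 0.123 of the array median in TBI+CB pool 1, at 0.502 to 0.52 in TBI+CB pool 2 and at 0.264 to 0.397 in the TBI pools. A level under about 0.5 in pool 2 is therefore no higher than a blank spot.

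Probe levels of the TBI+CB pools correlated with each other at r = 0.842, across probes, and those of the TBI pools at 0.943. Duplicate arrays correlated at 0.971 and 0.916 in the TBI+CB pools and at 0.962 and 0.978 in the TBI pools. By the slide identifiers in the file headers, from which runs were inferred, both TBI+CB and both TBI+MT pools at 24 h lay in a slide run of their own, while TBI and Sham at 24 h shared another run. Drug and slide run cannot be told apart in this comparison. Among comparisons of TBI+CB at 24 h, only that with TBI+MT at 24 h lies within a run.

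Spot faults of 2 kinds touched the TBI+CB arrays and are given beside each gene they concern. In the arrays of the drug run, 117 probes carried the authors' mask on at least 4 of the 8 arrays and on at most 2 of the other 24 arrays, and 27 of them were among the probes tested. Among probes above background on at least 1 of the duplicate arrays, the duplicates lay over 16-fold apart at 100 probes in TBI+CB pool 1, where array a was the brighter in 81 of the 100, and at 15 probes in TBI+CB pool 2. The same held for 9 and 2 probes in the TBI pools, and for 0 to 5 probes in the 10 other pools outside the drug run.

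The captured cells carried several neuronal transcripts at high levels in all 4 pools. Pyramidal neuron markers, 6 measured of 12, summed to 1310 and 706 in TBI+CB and to 1210 and 1360 in TBI. Their median difference from the TBI mean was 0.71 in TBI+CB pool 1 and -1.15 in pool 2, against 0.75 and -0.56 over all named genes. Camk2b, a kinase subunit of excitatory synapses, stood at 677 and 439 times the array median in the TBI+CB pools and at 882 and 917 in the TBI pools (-0.72, SE 0.45). Grik4, a kainate receptor subunit typical of CA3, stood at 197 and 73.8 in TBI+CB and at 137 and 212 in TBI. Nptx1, a secreted synaptic pentraxin, stood at 388 and 182 in TBI+CB and at 158 and 178 in TBI. The pools overlapped for Grik4, while both TBI+CB pools were above TBI for Nptx1 and below it for Camk2b. Slc17a7, the vesicular glutamate transporter, was lower in both TBI+CB pools, at 19 and 5.6 against 25.5 and 31 in TBI, a difference of -1.45 on the log2 scale (SE 0.55, adjusted p = 0.59, limma). In pooled tissue RNA of this kind, fewer cells of a type and less RNA per cell cannot be told apart.

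No probe passed the test of TBI+CB against TBI. With limma across all 16 pools and Benjamini-Hochberg adjustment, 0 of 17593 probes (0%) had an adjusted p under 0.05, and the smallest was 0.0517. At an unadjusted p under 0.05, 330 probes were higher in TBI+CB (1.88% of the probes tested) and 1126 were lower (6.40%). Among the 8255 genes with a name, taking the brightest probe of each, the same count gave 140 higher (1.70%) and 403 lower (4.88%). The balance of higher and lower probes at this threshold moved with the scaling. It was 500 against 963 when arrays were scaled to their 75th percentile, and 648 against 679 when they were centred on probes above background on all 32 arrays.

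Counts by size were far larger than counts by test. Over 2-fold higher in TBI+CB were 2511 probes (14.3%), and over 2-fold lower 2670 (15.2%). In named genes these counts were 1198 (14.5%) and 999 (12.1%), the background for the over 2-fold counts of each gene list below. Both TBI+CB pools lay above both TBI pools at 2790 probes (15.9%) and below both at 4807 (27.3%), and at the other 9955 the pools overlapped. In named genes the shares were 1297 above (15.7%) and 1882 below (22.8%), which are the background for each gene list below. Over 2-fold and without overlap were 1873 probes on the higher side (10.6%) and 2209 on the lower side (12.6%). The median standard error of a difference was 0.73 on the log2 scale, so most of these differences were not larger than the spread between pools allows.

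Each TBI+CB pool was then set against the mean of the TBI pools. Pool 1 lay above it, with a median of 0.6 over all probes, 6725 probes over 2-fold higher (38.2%) and 2368 over 2-fold lower (13.5%). Pool 2 lay below it, with a median of -0.56, 1109 probes over 2-fold higher (6.32%) and 5170 over 2-fold lower (29.5%). The pools thus shifted in opposite directions, and pool 1 was the higher of the pair at 80% of probes. At 793 probes both pools were over 2-fold higher than the TBI mean and at 1170 both were over 2-fold lower. Pool 1 was over 2-fold higher while pool 2 was over 2-fold lower at 963 probes, and the reverse held at 69. Fits were also run without 1 TBI+CB pool at a time, and some large differences in them could rest on faulty spots, others on values at the level of blank spots. Without TBI+CB pool 2, Rsl1d1, whose spot was masked on 5 arrays of the drug run, gave -7.21. Thy1, whose duplicate arrays in TBI+CB pool 1 lay 1220-fold apart, gave -6.46. Without TBI+CB pool 1, Hr and Cdca7l, chosen after their values were seen, gave -4.98 and -4.74. Their spots were masked on 0 arrays of the drug run. In TBI+CB pool 2 they stood at 0.325 and 0.291, no higher than a blank spot. In these fits the lone TBI+CB pool is assumed to vary like the other groups, whose spread sets the error. Under quantile normalization the pool medians came closer, at 0.15 and -0.17, and with arrays centred on probes above background on all 32 arrays they were -0.04 and 0.07. The shift of the pools thus depends on the scaling.

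**Figure D1:**
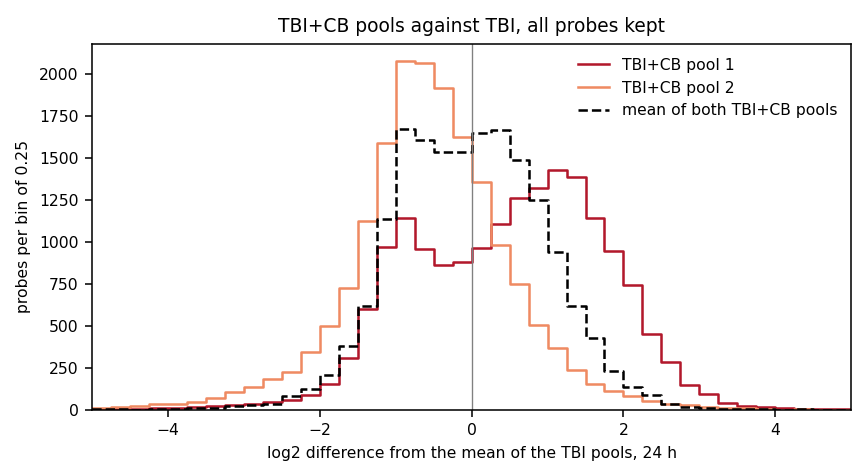
Log2 difference of TBI+CB pool 1, TBI+CB pool 2 and their mean from the mean of the TBI pools at 24 h, x axis, against the number of probes per bin of 0.25, y axis, over all probes tested. The distribution of pool 1 is shifted to the right (median 0.6) and that of pool 2 to the left (median -0.56), while their mean is centred near 0.

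Among the genes of corticosteroid signaling, 7 of the 12 listed passed the filter on low values and 0 passed the test. Hsd11b1, which encodes 11βHSD type 1, the enzyme that CB inhibits, stood at 16.6 and 5.67 in the TBI+CB pools and at 3.78 and 4.82 in the TBI pools. Both TBI+CB pools were above both TBI pools, but pool 2 by little, and the difference was 1.19 (SE 0.88, adjusted p = 0.67, limma). In TBI+MT it stood at 2.17 and 7.37 and in Sham at 7.32 and 4.41, a range that holds TBI+CB pool 2 and both TBI pools. Hsd11b2, the enzyme that inactivates corticosterone, did not pass the filter.

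The receptors differed from each other in direction. Nr3c1, the glucocorticoid receptor, stood at 0.89 and 0.485 in TBI+CB and at 1.81 and 1.65 in TBI, below both TBI pools in each pool (-1.4, SE 0.66, adjusted p = 0.59, limma). It was above background on 1 of the 4 TBI+CB arrays and on 3 of the 4 TBI arrays, so its probe is a dim one. Nr3c2, the mineralocorticoid receptor, was brighter, at 105 and 43.7 in TBI+CB and at 36.2 and 47 in TBI. Only TBI+CB pool 1 exceeded the TBI pools, and the difference was 0.71 (SE 0.98).

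The cochaperones of these receptors showed no common direction. Fkbp5, an immunophilin that glucocorticoids induce and that restrains their receptor, stood at 173 and 78.9 in TBI+CB and at 112 and 121 in TBI, with the TBI+CB pools on either side and a difference of 0 (SE 0.61). Fkbp4, an immunophilin that aids receptor transport, stood at 30.5 and 10 in TBI+CB and at 17.2 and 22.9 in TBI (-0.18, SE 1.1). Ncoa1, a coactivator, stood at 225 and 106 in TBI+CB and at 186 and 200 in TBI (-0.32, SE 0.48). In each of these 3 genes TBI+CB pool 1 was the highest of the 4 pools and TBI+CB pool 2 the lowest. Another bright probe of Ncoa1 had the same order (37.3 and 7.27 in TBI+CB, 7.38 and 8.35 in TBI), with a difference of 1.07. Hsp90ab1, a chaperone that holds the receptor ready for hormone, stood at 1.92 and 2.02 in TBI+CB and at 3.62 and 8.58 in TBI (-1.5, SE 1), but the duplicate arrays of TBI+CB pool 1 read 18.6 and 0.199, and on array a alone the difference was 0.21.

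**Figure D2:**
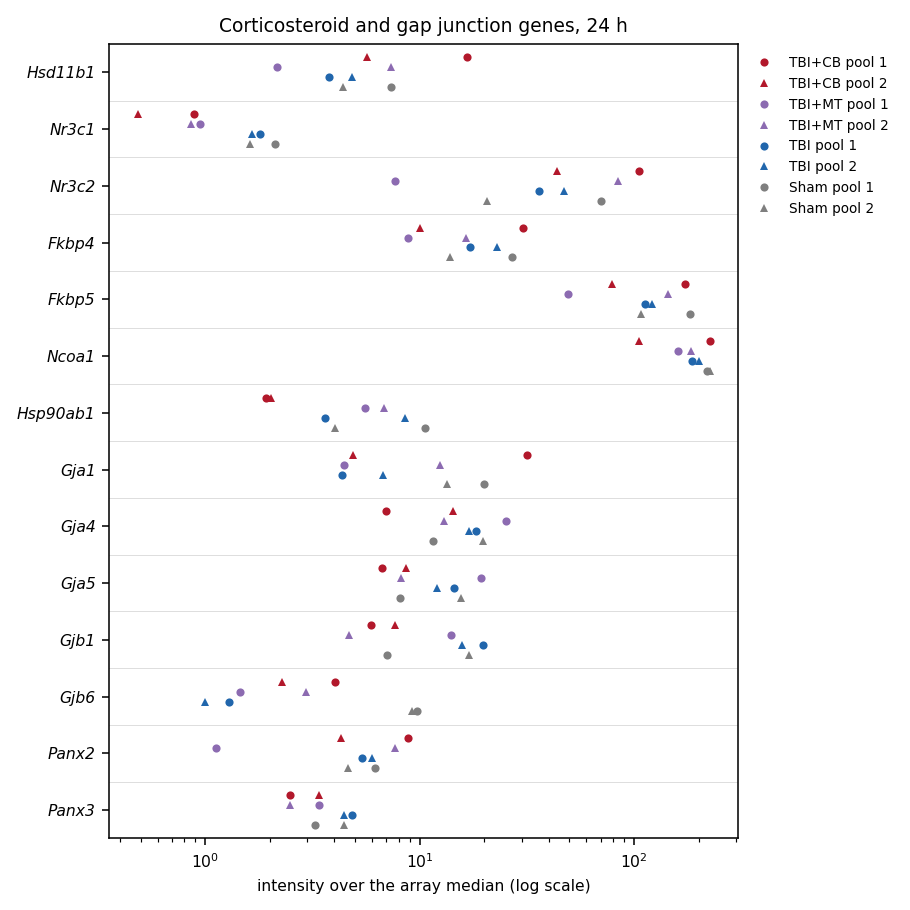
Level (intensity over the array median, log scale, x axis) of the corticosteroid and gap junction genes that passed the filter, in each pool at 24 h. Circles are pool 1 and triangles pool 2 of TBI+CB (red), TBI+MT (purple), TBI (blue) and Sham (grey). The TBI+CB pools lie on the same side of both TBI pools in Hsd11b1 and Gjb6 (higher) and in Nr3c1, Hsp90ab1, Gja4, Gja5, Gjb1 and Panx3 (lower).

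Genes that the glucocorticoid receptor is known to induce gave 14 measured members, of which 4 lay above both TBI pools, 3 below both and 0 passed the test. Their median difference was 0.29, against 0.04 over all named genes. Tsc22d3, or GILZ, a leucine zipper protein that mediates anti-inflammatory actions of the hormone, stood at 5.07 and 2 in TBI+CB and at 0.887 and 1.33 in TBI (1.55, SE 0.68, adjusted p = 0.59, limma), above background on 2 of 4 arrays in each group. Dusp1, a phosphatase that switches off MAP kinases, stood at 2.79 and 1.43 in TBI+CB, where 2 of 4 arrays were above background, and was not above background on any TBI array (0.863 and 0.365), at least 1.72-fold higher in TBI+CB. On the other side, Mertk, a receptor that drives uptake of dying cells, stood at 4.87 and 5.15 in TBI+CB and at 8.71 and 9.79 in TBI (-0.88, SE 0.46). Fam107a, an actin-associated stress gene, stood at 19.1 and 20.5 in TBI+CB and at 37.5 and 34 in TBI (-0.85, SE 0.52), although another probe of it gave 0.28. Stress peptides could hardly be read, since Crhbp, the corticotropin-releasing hormone binding protein, was the only 1 of 12 listed genes to pass the filter (5.22 and 0.698 in TBI+CB, 2.68 and 0.82 in TBI).

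Gap junction and pannexin genes, the channels that CB blocks, gave 7 measured members of 23 listed, of which 1 lay above both TBI pools and 4 below both. Gjb1, or connexin 32, a connexin of oligodendrocytes, stood at 5.93 and 7.69 in TBI+CB and at 19.7 and 15.7 in TBI (-1.38, SE 0.64, adjusted p = 0.59, limma). Its TBI+MT pools read 14 and 4.7 and its Sham pools 7.07 and 17, so the TBI+CB levels lay within the range of both groups. Another, dim probe of Gjb1 gave -0.49 with overlapping pools.

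The vascular connexins were also lower in TBI+CB. Gja4, or connexin 37, stood at 6.97 and 14.3 in TBI+CB and at 18.3 and 17 in TBI (-0.82, SE 0.61). Gja5, or connexin 40, stood at 6.66 and 8.62 in TBI+CB and at 14.5 and 12 in TBI (-0.8, SE 0.59), and a dim probe of the same gene gave -0.82. Panx3, a pannexin best known from bone and skin, stood at 2.5 and 3.38 in TBI+CB and at 4.82 and 4.42 in TBI (-0.67, SE 0.46). None of these 3 differences passed the test, and all were under 2-fold.

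Of the astrocyte connexins, only Gjb6 lay above TBI in both pools. Gjb6, or connexin 30, stood at 4.04 and 2.28 in TBI+CB, above background on 2 of 4 arrays, and was not above background on any TBI array (1.29 and 0.994), at least 2.39-fold higher in TBI+CB. In Sham it was higher again, at 9.77 and 9.22, and in TBI+MT it read 1.45 and 2.94. Gja1, or connexin 43, was uneven, at 31.7 and 4.9 in TBI+CB and at 4.35 and 6.78 in TBI (1.2, SE 0.86), and another probe gave -0.1. Panx2, the pannexin of neurons, overlapped, at 8.81 and 4.32 in TBI+CB and at 5.37 and 6.01 in TBI (0.12, SE 0.8). Panx1 and Gjd2, the neuronal connexin 36, did not pass the filter.

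The 15 named genes of the smallest p on the higher side had differences of 1.67 to 3.74 (SE 0.51 to 1.06), and 0 passed the test. Because they were picked for their p in this comparison, their values are a description. In 11 of the 15 no TBI array was above background, so that only a lower bound on the fold can be given, and 3 were above background on all 8 arrays.

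The 3 higher genes read on every array were Prss35, Pck2 and Klhl11. Prss35, a serine protease-like protein, stood at 41.7 and 73.7 in TBI+CB and at 10.9 and 10.9 in TBI (2.35, SE 0.63, adjusted p = 0.59, limma). Its duplicate arrays were close, at 40.5 and 43 in TBI+CB pool 1 and at 74.6 and 72.9 in pool 2. The TBI+MT pools read 11.3 and 8.17, like TBI, but the Sham pools read 51.2 and 11.6, so 1 untreated pool lay within the TBI+CB range. TBI+CB exceeded TBI+MT by 2.53 (adjusted p = 0.787, limma). When all 32 arrays were fitted with their duplicate correlation, the adjusted p of Prss35 was 0.0443 against TBI+MT and 0.0579 against TBI, and over the other alternatives that against TBI was 0.183 to 0.97. Another, dim probe of Prss35 gave 0.6.

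Pck2, the mitochondrial form of a gluconeogenic enzyme that the integrated stress response induces, stood at 14.7 and 10.6 in TBI+CB and at 3.93 and 3.88 in TBI (1.67, SE 0.51). Its TBI+MT pools read 4.87 and 6.52 and its Sham pools 7.36 and 5.59, all below TBI+CB. The other probes of the gene did not share a direction, with differences of 1.86 and -0.84 from dim spots. Klhl11, an adaptor of ubiquitin ligases, stood at 14 and 6.46 in TBI+CB and at 2.79 and 1.76 in TBI (2.1, SE 0.71), but another probe, also above background on all 8 arrays, read 1.73 and 2.85 in TBI+CB and 8.37 and 8.33 in TBI (-1.91). The direction of Klhl11 therefore depends on the probe.

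Ghr, the growth hormone receptor, stood at 4.1 and 3.5 in TBI+CB and was not above background in TBI (0.183 and 0.453), at least 3.27-fold higher in TBI+CB. Gdi2, which recycles Rab proteins between membranes, stood at 1.84 and 4.05 in TBI+CB against 0.202 and 0.205 in TBI, none of them above background in TBI, at least 2.35-fold higher. Lix1l, a putative RNA-binding protein, stood at 6.1 and 4.85 in TBI+CB and was likewise not above background in TBI, at least 4.3-fold higher. All 3 were read on all 4 TBI+CB arrays, and each TBI+CB pool lay above every TBI, TBI+MT and Sham pool.

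Further genes of this set touch membrane currents and metabolism. Kcnk2, or TREK-1, a background potassium channel that fatty acids open, stood at 4.78 and 2.51 in TBI+CB and was not above background in TBI, at least 2.99-fold higher, and another probe gave 1.94. Trpc6, a cation channel opened by diacylglycerol, stood at 1.55 and 2.45 in TBI+CB and was at least 1.69-fold higher. Slc25a18, a mitochondrial glutamate carrier, stood at 2.38 and 3.62 in TBI+CB and was at least 2.53-fold higher. Each of these genes lay above both TBI pools in both TBI+CB pools, but Sham pool 1 read 1.8 for Trpc6 and both Sham pools, at 2.43 and 2.56, lay within the TBI+CB range for Slc25a18.

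Oplah, an enzyme of glutathione turnover, was at least 1.76-fold higher in TBI+CB (1.65 and 2.52), Cyp2d4, a brain cytochrome P450, at least 2.9-fold (2.72 and 4.14), Tbcel, a tubulin chaperone, at least 2.27-fold (1.79 and 3.85) and Cwc22, a splicing factor, at least 2.44-fold (3.31 and 2.41), each against TBI pools not above background. Gusb, a lysosomal glucuronidase, stood at 5.96 and 6.27 in TBI+CB and at 1.76 and 0.314 in TBI, where 1 of 4 arrays was above background (3.04, SE 1.06). Erlec1, a lectin of the endoplasmic reticulum, had a dim probe at 0.88 and 2.38 in TBI+CB, at least 1.25-fold higher than TBI, but its brighter probe read 158 and 95.4 in TBI+CB and 119 and 136 in TBI (-0.05). The brighter probe of Erlec1 thus showed no separation of the groups. Sham pool 1 (1.81) lay within the TBI+CB range for Oplah, as did TBI+MT pool 1 (1.66) for the dim probe of Erlec1.

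**Figure D3:**
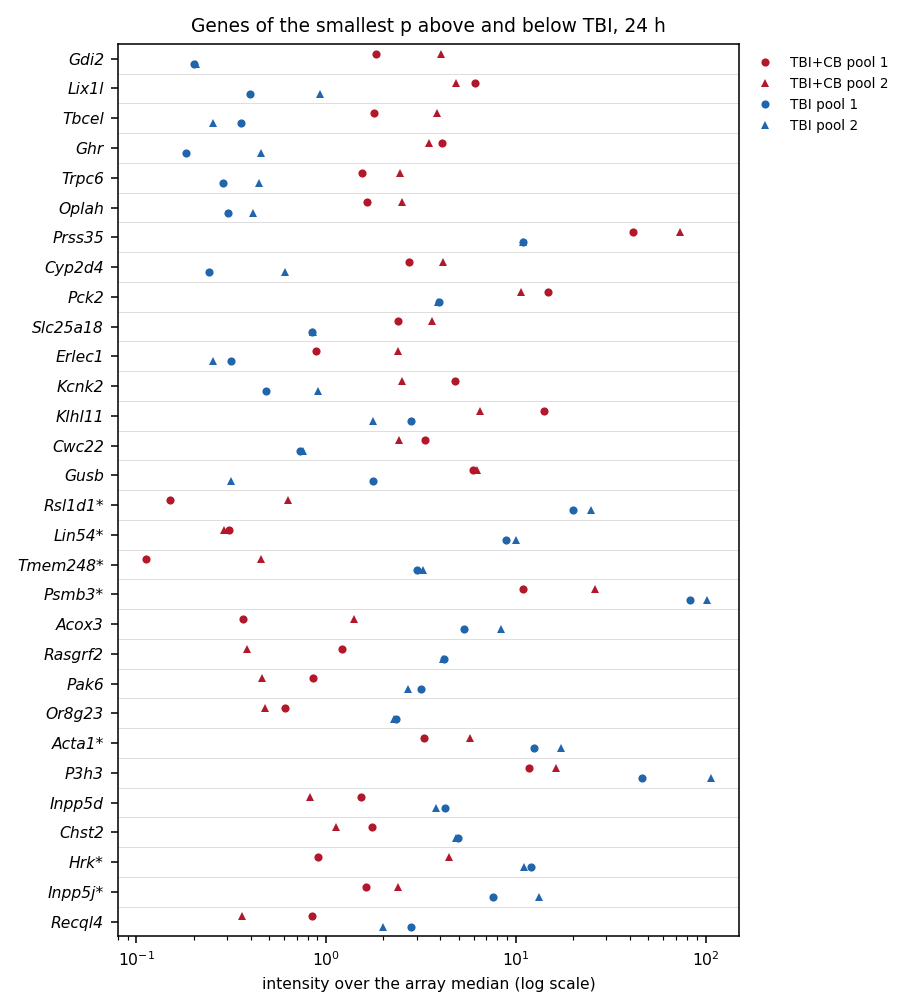
Level (intensity over the array median, log scale, x axis) of the 15 named genes of the smallest p above TBI and the 15 below it, in TBI+CB (red) and TBI (blue), with circles for pool 1 and triangles for pool 2. Asterisks mark 7 genes of the lower set whose spots were masked on at least 4 of the 8 arrays of the drug run or whose duplicate arrays lay over 16-fold apart in a TBI+CB pool with at least 1 of them above background.

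The 15 named genes of the smallest p on the lower side had differences of -6.18 to -1.77 (SE 0.47 to 0.74), and 0 passed the test. Of these, 7 carried 1 of the spot faults.

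Rsl1d1, a nucleolar protein, had the smallest adjusted p of all probes (0.0517). It stood at 0.15 and 0.626 in TBI+CB and at 20 and 24.9 in TBI, and was not above background on any readable TBI+CB array, at least 23.2-fold lower. Its spot was masked on 5 of the 8 arrays of the drug run, including both TBI+MT pools, and on 0 of the other 24 arrays, and the Sham pools read 39 and 17.7. The same state held for Lin54, a subunit of a cell cycle repressor complex (0.308 and 0.289 in TBI+CB, 8.88 and 10 in TBI, at least 9.81-fold lower, adjusted p = 0.0558, limma), and for Tmem248, a membrane protein (0.112 and 0.453 in TBI+CB, 3.01 and 3.22 in TBI, at least 3.24-fold lower). No TBI+MT pool had a readable value for these 3 genes, so within the drug run their low values were read in TBI+CB alone. Whether the masked spots account for them was not tested.

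In 4 more of the 15 the value of TBI+CB pool 1 came from duplicate arrays that disagreed. Psmb3, a proteasome subunit, stood at 10.9 and 26.1 in TBI+CB and at 82.6 and 102 in TBI (-2.45, SE 0.54), but array a of TBI+CB pool 1 read 96.7 and array b 1.22. On array a alone its difference was -0.83 and on array b alone -4.07, and the other Psmb3 probe gave -0.67. Hrk, a BH3-only inducer of apoptosis in neurons, read 5.65 on array a and 0.145 on array b of that pool, and its difference was -2.52 on both, -1.28 on array a and -3.76 on array b. Inpp5j, a phosphoinositide phosphatase, read 26.7 and 0.0696 (-2.35 on both, -0.3 on array a, and -0.57 from another probe), and Acta1, skeletal actin, 13.8 and 0.784 (-1.77 on both, -0.79 on array a). The difference of all 4 was below 0 on either array and larger in size on array b. On array a, however, TBI+CB pool 1 lay above both TBI pools for Inpp5j (7.7 and 12.8). It lay between them for Psmb3 (84 and 97.7) and Acta1 (13.7 and 16.5), and below both for Hrk (13.1 and 10.2). Without TBI+CB pool 1 the differences were -1.82 for Psmb3, -1.37 for Hrk, -2.07 for Inpp5j and -1.37 for Acta1.

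Of the other 8 genes of the lower set, Acox3, P3h3, Pak6, Inpp5d and Chst2 had TBI+CB duplicates within 2.04-fold. Acox3, a peroxisomal oxidase of branched fatty acids, was above background on all TBI arrays (5.31 and 8.38) and on no TBI+CB array (0.366 and 1.41), at least 7.01-fold lower in TBI+CB. Its TBI+MT pools (0.496 and 0.417) and Sham pools (0.244 and 0.323) were as low as TBI+CB, so the TBI pools stood apart from all 6 others. P3h3, a prolyl hydroxylase of collagen, was read on all 8 arrays, at 11.7 and 16.3 in TBI+CB and at 46.4 and 107 in TBI (-2.35, SE 0.63, adjusted p = 0.59, limma), with 26.2 and 87.6 in TBI+MT and 66.3 and 93.1 in Sham. Both TBI+CB pools were the lowest of the 8 pools at 24 h.

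Rasgrf2, a calcium-dependent exchange factor for Ras at synapses, stood at 1.21 and 0.384 in TBI+CB and at 4.17 and 4.12 in TBI (-2.6, SE 0.61), with TBI+CB duplicates 4.78-fold and 14.8-fold apart at dim spots. Pak6, a serine/threonine kinase of neurons, stood at 0.849 and 0.46 in TBI+CB and at 3.17 and 2.7 in TBI (-2.23, SE 0.53). Inpp5d, or SHIP1, a phosphatase of microglia and blood cells, stood at 1.52 and 0.826 in TBI+CB and at 4.24 and 3.8 in TBI (-1.84, SE 0.5). In Rasgrf2 and Pak6 both TBI+CB pools lay below every other pool at 24 h, with TBI+MT pool 2 next at 1.51 and 0.948, and for Inpp5d TBI+MT pool 2 (1.25) lay between them. Chst2, a sulfotransferase, gave -1.8 (another probe -0.27), Recql4, a DNA helicase, -2.1 and Or8g23, an olfactory receptor, -2.1, each above background on 1 or 2 of the 4 TBI+CB arrays. In TBI+CB pool 2 the dim duplicates of Recql4 lay 6.49-fold and those of Or8g23 22.6-fold apart. The TBI+MT pools were also low, at 0.802 and 1.34 for Chst2 and at 0.52 and 0.751 for Or8g23.

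A common shape across all 8 pools at 24 h ran through the lower genes. Among the members of the gene lists named here that were above background on all 8 arrays, 38 had both TBI+CB pools below both TBI pools, which is how they were chosen. Relative to the TBI mean, their median levels were -0.89 and -1.04 in the TBI+CB pools, -0.22 and -0.96 in the TBI+MT pools and -0.65 and 0.06 in the Sham pools. TBI+MT pool 2 and Sham pool 1 thus stood near the TBI+CB pools, while TBI+MT pool 1 and Sham pool 2 stood near TBI. Each of these comparisons uses the same TBI pools.

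A further 21 such genes had TBI+CB pool 1 above both TBI pools and were not in the lower set. Their median levels relative to the TBI mean were 1.96 and 0.40 in the TBI+CB pools, -1.22 and 0.93 in the TBI+MT pools and 0.98 and -0.44 in the Sham pools. The array medians were 40.7 to 43.8 and 9.41 to 9.65 in the TBI+CB pools, 9.67 to 10.5 and 14.0 to 23.8 in the TBI+MT pools, 14.2 to 14.6 and 17.9 to 18.7 in the TBI pools and 23.2 to 23.6 and 12.3 to 12.5 in the Sham pools. TBI+CB pool 2, with the dimmest arrays, had a median of 0.40 in these genes and of -0.56 over all probes. The genes were picked for a small p in this comparison and for a high TBI+CB pool 1, so their medians are a description. The part of array brightness in the higher genes was not tested.

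**Figure D4:**
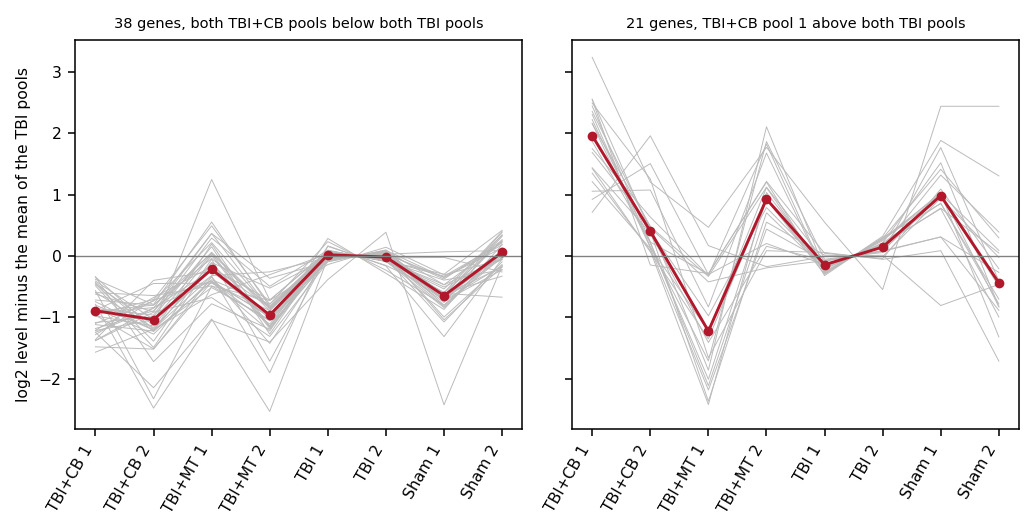
Log2 level minus the mean of the TBI pools (y axis) in the 8 pools at 24 h (x axis), for 38 genes with both TBI+CB pools below both TBI pools (left) and 21 genes with TBI+CB pool 1 above both (right). Grey lines join the values of a gene and red points are medians. TBI+MT pool 2 and Sham pool 1 lie low on the left (-0.96 and -0.65) and high on the right (0.93 and 0.98).

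Of 21 apoptosis regulators measured, 4 lay above both TBI pools, 4 below both, and 0 passed the test, with a median of -0.39 against 0.04 over all named genes. Bcl2l1, or Bcl-xL, the main survival protein of adult neurons, stood at 38.6 and 36.4 in TBI+CB and at 61.3 and 65.8 in TBI (-0.76, SE 0.49, adjusted p = 0.626, limma). Its TBI+MT pools read 61.7 and 35.9 and its Sham pools 38.8 and 66.6, and it is among the 38 genes described above. Bbc3, or PUMA, a BH3-only death inducer, stood at 1.52 and 1.41 in TBI+CB and at 2.92 and 2.89 in TBI (-0.99, SE 0.51).

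The pore-forming pair had no readable direction. Bak1 stood at 12 and 4.1 in TBI+CB and at 16.2 and 11.7 in TBI (-0.98, SE 0.52), with overlapping pools. Bax stood at 1.37 and 0.504 in TBI+CB, above background on 2 of 4 arrays, and was not above background in TBI (0.208 and 0.432), with no readable fold. Cycs, the cytochrome c that they release from mitochondria, stood at 19.5 and 6.01 in TBI+CB and at 3.1 and 6.17 in TBI (1.31, SE 1.04), so that only TBI+CB pool 1 exceeded both TBI pools.

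TNF and death receptor genes gave 19 members with a median of -0.46, 3 above both TBI pools and 5 below both. Tnf, the cytokine itself, stood at 2.25 and 2.52 in TBI+CB and at 4.58 and 6.24 in TBI (-1.17, SE 0.51, adjusted p = 0.59, limma), and another probe gave -0.65. Ikbkg, or NEMO, the scaffold of the kinase that frees NF-κB, stood at 2.68 and 2.73 in TBI+CB and at 5.78 and 6.49 in TBI (-1.18, SE 0.51), and Nfkb1, the precursor of an NF-κB subunit, at 1.95 and 1.77 in TBI+CB and at 3.2 and 3.18 in TBI (-0.78, SE 0.46). In these 3 genes no TBI+CB pool reached a TBI pool. Traf2, an adaptor of the TNF receptor, stood at 1.61 and 0.46 in TBI+CB and at 0.36 and 0.402 in TBI, where no array was above background, and no bound on its fold could be given.

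The PI3K and AKT list, 27 genes, had a median of -0.01 and 2 members above both TBI pools against 4 below. Nfkbia, the inhibitor that holds NF-κB in the cytoplasm, stood at 16 and 8.06 in TBI+CB and at 6.09 and 7.19 in TBI (0.78, SE 0.8, adjusted p = 0.745, limma), with both TBI+CB pools above TBI. Foxo1, a transcription factor that AKT shuts out of the nucleus, stood at 5.27 and 4.9 in TBI+CB and at 10.2 and 8.97 in TBI (-0.91, SE 0.51). Tsc1, a brake on mTOR, stood at 1.51 and 1.68 in TBI+CB and at 3.55 and 3.03 in TBI (-1.04, SE 0.49). Rps6kb1, a kinase below mTOR, had a value in only 1 TBI+CB pool (5.16), since its spot was masked on 3 arrays of the drug run.

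Map2k1, or MEK1, a kinase of the growth factor cascade, stood at 69.1 and 9.67 in TBI+CB and at 13.1 and 14.5 in TBI (0.9, SE 1.14). TBI+CB pool 1 was the highest of the 4 pools and TBI+CB pool 2 the lowest. Plcg1, the phospholipase that opens this cascade to calcium signals, stood at 159 and 87.6 in TBI+CB and at 206 and 197 in TBI (-0.77, SE 0.48), but another probe read 22.2 and 7.89 in TBI+CB against 9.52 and 12.4 in TBI (0.29).

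Calcineurin and NFAT genes, 11 members with a median of 0.28, were mostly overlapping, with 1 above both TBI pools and 2 below both. Ppp3r1, the regulatory subunit of calcineurin, stood at 64.6 and 14.5 in TBI+CB and at 12.6 and 13.6 in TBI (1.22, SE 1.18), nearly all of it from pool 1. Ppp3cb, a catalytic subunit, stood at 9.91 and 11.8 in TBI+CB and at 19.3 and 19.3 in TBI (-0.84, SE 0.59). Rcan1, an inhibitor of calcineurin, stood at 36.3 and 15.9 in TBI+CB and at 17.6 and 19.6 in TBI (0.37, SE 0.68). In the cyclic AMP list, 19 genes with a median of -0.08, Ep300, a coactivator of CREB, stood at 3.57 and 5.16 in TBI+CB and at 9.23 and 9.33 in TBI (-1.11, SE 0.57), although a dim probe of it gave 0.41.

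Immediate early genes, which follow neuronal firing, gave 18 members with a median of 0.23, 4 above both TBI pools, 5 below both and 0 past the test. Nr4a2, a nuclear receptor, stood at 13.1 and 16 in TBI+CB and at 31.6 and 28 in TBI (-1.04, SE 0.52), with 31 and 16.4 in TBI+MT and 19.6 and 35.1 in Sham, but a dim probe of it gave 1.33. Klf4, a zinc finger factor that limits axon regrowth, stood at 3.31 and 0.548 in TBI+CB and at 4.29 and 5.33 in TBI (-1.83, SE 0.89). Btg2, an antiproliferative factor, gave -1.02 and Fosl1, an AP-1 subunit, -1.42, both near background in TBI+CB.

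Neuropeptide genes, 15 members with a median of 0.45, had 6 over 2-fold higher and 0 over 2-fold lower, against 14.5% and 12.1% of named genes. Above both TBI pools lay 5 and below both 3, against 15.7% and 22.8%. Their median was 0.98 in pool 1 and -0.1 in pool 2, where 6 of the 15 were above the TBI mean. Relative to all named genes in the same pool it was 0.23 and 0.46. Tac1, the precursor of substance P, stood at 18.8 and 7.98 in TBI+CB and at 3.48 and 3.22 in TBI (1.87, SE 0.88, adjusted p = 0.59, limma). Both TBI+CB pools exceeded all other pools at 24 h, which read 1.02 to 3.55. Vip, vasoactive intestinal peptide, stood at 5.02 and 7.52 in TBI+CB and at 2.4 and 2.93 in TBI (1.21, SE 0.78), and Penk, the enkephalin precursor, at 8.08 and 2.47 in TBI+CB and at 0.632 and 2.35 in TBI (1.87, SE 1.44). Adcyap1, or PACAP, a neuroprotective peptide, stood the other way, at 17.9 and 13 in TBI+CB and at 28.6 and 31.5 in TBI (-0.98, SE 0.53).

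Neurotrophic factors and receptors, 14 members with a median of -0.36, had 2 above both TBI pools and 5 below both. Fgfr3, a receptor of fibroblast growth factors that astrocytes carry, stood at 4.71 and 3.52 in TBI+CB and at 10 and 7.25 in TBI (-1.06, SE 0.48). Ntrk3, the receptor of neurotrophin-3, stood at 35.1 and 17.5 in TBI+CB and at 48.3 and 50.1 in TBI (-0.99, SE 0.49), and Fgf2, a growth factor raised by injury in many tissues, at 1.94 and 1.33 in TBI+CB and at 3.41 and 3.18 in TBI (-1.04, SE 0.53). Ret, the signaling receptor of GDNF, gave -0.93 (SE 0.47). Bdnf and Ngfr did not pass the filter.

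Among receptors of fast transmission, AMPA, kainate and NMDA subunits, 8 measured of 18, had a median of -0.63. It was -0.06 in TBI+CB pool 1 and -1.25 in pool 2. Relative to all named genes in the same pool it was -0.81 and -0.69, so the list stood lower in both. Above both TBI pools lay 0 members, against 15.7% of named genes, and below both lay 4, against 22.8%. Grin1, the obligate NMDA subunit, stood at 256 and 147 in TBI+CB and at 330 and 361 in TBI (-0.83, SE 0.46), and its 2 other probes gave -0.89 and -0.43. Grik5, a kainate subunit, stood at 16.8 and 6.45 in TBI+CB and at 20.7 and 21.9 in TBI (-1.03, SE 0.52).

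Metabotropic glutamate receptors, 7 measured of 8, had the lowest list median, -0.92, and it was -1.05 in pool 1 and -1.09 in pool 2. Relative to all named genes in the same pool it was -1.8 and -0.53. Grm3, which dampens release and is also found on astrocytes, stood at 21.4 and 19.9 in TBI+CB and at 56.6 and 38.2 in TBI (-1.17, SE 0.61), while a dim probe of it gave 0.54. Grm2, its close relative, stood at 1.49 and 2.19 in TBI+CB and at 4.85 and 4.48 in TBI (-1.37, SE 0.57), Grm5 at 0.94 and 0.819 in TBI+CB and at 2.08 and 1.85 in TBI (-1.16, SE 0.5), and Grm7 at 2.07 and 2.47 in TBI+CB and at 4.1 and 4.46 in TBI (-0.92, SE 0.46). In these 4 genes no TBI+CB pool reached a TBI pool. The list median came to -0.32 when all probes of a gene were averaged and to 0.12 over members above background on all 8 arrays.

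GABA-A receptor subunits, 5 measured of 18, had 1 above both TBI pools and 3 below both. Gabra4, a subunit of receptors outside synapses, stood at 19.7 and 17.6 in TBI+CB and at 39.5 and 38.1 in TBI (-1.06, SE 0.51), and Gabrq at 18.3 and 13.8 in TBI+CB and at 30.8 and 33 in TBI (-1, SE 0.5). Gabrb1 stood the other way, at 44.8 and 20.7 in TBI+CB and at 11 and 16.2 in TBI (1.19, SE 0.93). All 3 subunits stood in TBI+MT pool 2 and Sham pool 1 on the side of TBI+CB. They are among the genes in the plot of the 8 pools, so they add nothing separate to it. Gabrq was also below both TBI pools in TBI+MT pool 1 (22.3) and Sham pool 2 (28.2).

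Synaptic vesicle genes, 19 with a median of -0.35, had 2 above and 3 below both TBI pools. Syn1, a vesicle phosphoprotein, stood at 1.98 and 2.08 in TBI+CB and at 5.56 and 4.46 in TBI (-1.3, SE 0.43), another probe gave -2.17, and TBI+MT at 5.19 and 5.05 and Sham at 3.79 and 3.52 were all above TBI+CB. Vamp2, the vesicle SNARE, stood at 4.44 and 6.54 in TBI+CB and at 11.1 and 10.5 in TBI (-1, SE 0.63), but a dim probe of it gave 0.55. Among endocytosis genes, 20 with a median of -0.35, Ap2m1, a subunit of the clathrin adaptor, stood at 470 and 315 in TBI+CB and at 751 and 671 in TBI (-0.88, SE 0.45).

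Potassium channel genes, 15 with a median of -0.33, had 3 above and 6 below both TBI pools, against 15.7% and 22.8% of named genes. Kcnd3, a subunit of the A-type current, stood at 41.7 and 10.2 in TBI+CB and at 6.48 and 3.03 in TBI (2.22, SE 0.98), but both of its other probes, which are dim, gave -1.59 and -1.18, and the Sham pools read 24 each. Kcnab1, an auxiliary subunit, stood at 13.9 and 3.13 in TBI+CB and at 2.39 and 2.35 in TBI (1.48, SE 0.96). Kcnb2, a delayed rectifier, stood at 1.1 and 1.19 in TBI+CB and at 2.48 and 2.59 in TBI (-1.15, SE 0.58). Sodium and calcium channel genes, 16 with a median of -0.06, held Cacna2d2, an auxiliary calcium channel subunit, at 3.99 and 2.33 in TBI+CB and at 5.92 and 6.51 in TBI (-1.03, SE 0.65).

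Axon guidance genes, 27 with a median of -0.38, had 1 above and 8 below both TBI pools, against 15.7% and 22.8% of named genes. Ephb2, an ephrin receptor of excitatory synapses, stood at 5.05 and 4.92 in TBI+CB and at 13.9 and 14.3 in TBI (-1.5, SE 0.5, adjusted p = 0.59, limma), with 11.1 and 5.25 in TBI+MT and 8.95 and 14.1 in Sham. Slit1, a repellent for growing axons, stood at 2.42 and 1.47 in TBI+CB and at 3.7 and 4.29 in TBI (-1.08, SE 0.47), and Unc5b, a netrin receptor, at 1.23 and 0.961 in TBI+CB and at 2.51 and 2.03 in TBI (-1.05, SE 0.55). Both TBI+CB pools lay under both TBI pools in all 3.

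For protein breakdown and respiration, the medians of the proteasome, complex I, complexes II to IV and ATP synthase lists were above 0 in pool 1 and below 0 in pool 2. The same held for all named genes, at 0.75 and -0.56. Relative to these, complex I stood at 0.3 and 0.14, complexes II to IV at 0.02 and 0.13 and ATP synthase at 0.74 and 0.02. Proteasome subunits, 33 measured of 35, had the highest list median, 0.74 against 0.04 over all named genes. Over 2-fold higher were 11 and over 2-fold lower 2, against 14.5% and 12.1% of named genes. Above both TBI pools lay 6 and below both 2, against 15.7% and 22.8%. The median was 1.64 in pool 1 and -0.37 in pool 2, and relative to all named genes in the same pool it was 0.88 and 0.19. Psmb4, a core subunit, stood at 29.6 and 12.8 in TBI+CB and at 8.69 and 9.75 in TBI (1.08, SE 0.59). Psmd5, an assembly chaperone of the cap, stood at 12.4 and 3.33 in TBI+CB and at 2.3 and 2.56 in TBI (1.4, SE 0.82), while Psma7, a subunit of the outer ring, stood at 22.3 and 29.3 in TBI+CB and at 56 and 49.9 in TBI (-1.05, SE 0.57). Among probes above background on all 32 arrays the list median was 0.11.

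Complex I subunits, 25 genes with a median of 0.37, had 5 over 2-fold higher and 0 over 2-fold lower, against 14.5% and 12.1% of named genes. Above both TBI pools lay 3 and below both 1, against 15.7% and 22.8%. Ndufs1, its largest core subunit, stood at 67.6 and 68.5 in TBI+CB and at 26.7 and 39.7 in TBI (1.06, SE 0.73), with 18.3 and 104 in TBI+MT and 86.6 and 39.9 in Sham. ATP synthase subunits, 12 genes with a median of 0.51, were at 1.5 in pool 1 and -0.54 in pool 2, with 0 above both TBI pools and 1 below both. Atp5f1a, the α subunit, stood at 248 and 61.3 in TBI+CB and at 44.8 and 63.2 in TBI (1.21, SE 0.95), high in pool 1 alone. Complexes II to IV, 20 genes, had a median of 0.07 and cytosolic ribosomal proteins, 41 genes, of 0.11. Rps24, a small subunit protein, stood at 14.7 and 15.7 in TBI+CB and at 33.1 and 29.4 in TBI (-1.04, SE 0.56).

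Antioxidant genes, 24 with a median of 0.57, had 5 over 2-fold higher and 2 over 2-fold lower, against 14.5% and 12.1% of named genes. Above both TBI pools lay 4 and below both 5, against 15.7% and 22.8%. Gclm, the modifier subunit of the rate-limiting enzyme of glutathione synthesis, stood at 5.49 and 5.04 in TBI+CB and was not above background in TBI (1.29 and 1.11), at least 4.23-fold higher, and above TBI+MT (1.01 and 0.747) and Sham (2.94 and 1.16). Sod3, the extracellular superoxide dismutase, gave -1.89 (SE 0.69), but array a of TBI+CB pool 1 read 3.84 and array b 0.133. Hmox2, the constitutive heme oxygenase, stood at 63.7 and 33.3 in TBI+CB and at 88.1 and 86.4 in TBI (-0.92, SE 0.6).

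Heat shock genes, 11 with a median of 0.02, and cholesterol synthesis genes, 14 with a median of 0.04, lay at the level of all named genes. Hspd1, the mitochondrial chaperonin, stood at 118 and 37.1 in TBI+CB and at 22.9 and 30.7 in TBI (1.32, SE 1.16). Hspa5, or BiP, the chaperone of the endoplasmic reticulum, was not above background in TBI and at least 1.42-fold higher in TBI+CB (4.06 and 0.671), where 2 of 4 arrays were above background. Sc5d, a late enzyme of cholesterol synthesis, stood at 4.9 and 5.03 in TBI+CB and at 1.81 and 1.37 in TBI (1.66, SE 0.63). Both TBI+CB pools of Sc5d were the highest of the 8 pools at 24 h.

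Inflammatory mediators had a median below TBI in both TBI+CB pools, at -0.45 in pool 1 and -0.85 in pool 2. Their summed level was lower in pool 2 alone, at 193 and 67.8 in TBI+CB and at 142 and 180 in TBI. Of 16 measured, 9 lay below both TBI pools, against 22.8% of named genes, 2 above both, and 0 passed the test, with a median of -0.73. Ccl2, the main attractant of monocytes, stood at 1.32 and 1.01 in TBI+CB and at 3.51 and 4.26 in TBI (-1.75, SE 0.79, adjusted p = 0.59, limma), with 0.45 and 1.55 in TBI+MT and 0.276 and 0.715 in Sham. Cxcl1, an attractant of neutrophils, stood at 1.64 and 0.829 in TBI+CB and at 4.45 and 5.01 in TBI (-2.02, SE 1.15), with 1.08 and 16 in TBI+MT and 2.1 and 1.7 in Sham. For Ccl2 the TBI pools were the highest of the 8 pools, and for Cxcl1 TBI+MT pool 2 was higher still. Both genes were above background on only 2 of the 4 TBI+CB arrays. Ccl4 gave -1.09 with 0 of 4 TBI arrays above background, and another probe of it 0.8, so it has no readable direction.

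Markers of other cells the laser could have caught were read for the same pools. Microglia and macrophage markers, 10 measured of 16, summed to 161 and 182 in TBI+CB and to 156 and 139 in TBI. Csf1r, their growth factor receptor, stood at 88.1 and 70.8 in TBI+CB and at 88 and 62.7 in TBI (0.09, SE 0.66). Single members went both ways, with Laptm5, a lysosomal protein, at 11.8 and 28 in TBI+CB and 7.16 and 7.27 in TBI (1.34, SE 0.57), and Cx3cr1, the fractalkine receptor, at 0.849 and 1.46 in TBI+CB and 3.43 and 2.52 in TBI (-1.4, SE 0.69). Aif1, also called Iba1, chosen after its values were seen, stood at 7.97 and 7.55 in TBI+CB and at 2.87 and 5.27 in TBI (0.99, SE 0.66), and Cd68, a marker of phagocytes, at 2.46 and 1.58 in TBI+CB and at 4.41 and 3.74 in TBI (-1.04, SE 0.64).

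Astrocyte markers, 11 measured of 13, summed to 576 and 280 in TBI+CB and to 333 and 410 in TBI. Gfap, the astrocyte filament, chosen after its values were seen, stood at 27.3 and 30.8 in TBI+CB and at 33.5 and 39.4 in TBI (-0.33, SE 0.54), all far above Sham (2.63 and 5.1), as were the TBI+MT pools (43.2 and 21.3). Tyrobp, a microglial adaptor chosen in the same way, stood at 37.3 and 67 in TBI+CB and at 40.3 and 46.8 in TBI, against 8.27 and 13.9 in Sham. For Tyrobp the TBI+CB and TBI pools overlapped, and for Gfap both TBI+CB pools were below TBI by less than the standard error. Glul, the glutamine synthetase of astrocytes, stood at 218 and 131 in TBI+CB and at 170 and 180 in TBI (-0.06, SE 0.59).

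Oligodendrocyte markers, 8 measured of 16, summed to 207 and 90.6 in TBI+CB and to 184 and 214 in TBI, with 0 above both TBI pools and 3 below both. Mag, a myelin glycoprotein, stood at 23.8 and 26.9 in TBI+CB and at 56.2 and 54.4 in TBI (-1.13, SE 0.57), with 56.7 and 24.9 in TBI+MT and 31.2 and 59.6 in Sham. Olig1, a lineage factor, stood at 24.6 and 33.9 in TBI+CB and at 59.9 and 68.5 in TBI (-1.15, SE 0.56). Cnp, the brightest marker, overlapped, at 76.3 and 13.1 in TBI+CB and at 32.6 and 35.8 in TBI. Mbp, the defining myelin gene, did not pass the filter.

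Endothelial and pericyte markers, 10 measured of 15, summed to 76.4 and 47.6 in TBI+CB and to 74 and 95.1 in TBI. Tek, the angiopoietin receptor, stood at 3.36 and 1.34 in TBI+CB and at 7.25 and 5.06 in TBI (-1.51, SE 0.74), Pecam1, an endothelial adhesion protein, at 4.78 and 3.27 in TBI+CB and at 10.4 and 8.39 in TBI (-1.24, SE 0.57), and Cldn5, the tight junction protein, at 21.7 and 11.5 in TBI+CB and at 14.5 and 23.8 in TBI (-0.23, SE 0.54). Choroid plexus markers gave 2 of 8, and they disagreed, since Folr1, a folate receptor, stood at 7.26 and 3.88 in TBI+CB and at 16.8 and 17.6 in TBI, while Ttr, the defining transcript, was above background only in TBI+CB pool 2 (0.217 and 7.73, against 0.394 and 0.393 in TBI). Interneuron markers, 7 of 15, summed to 113 and 67.2 in TBI+CB and to 98 and 78.6 in TBI, with Gad1, the GABA-synthesizing enzyme, at 85.2 and 51.8 in TBI+CB and at 85.9 and 65.3 in TBI. Blood markers gave 3 of 12, with sums of 6.35 and 5.68 in TBI+CB and of 4.77 and 8.03 in TBI, and Cd3e, a T cell receptor chain, at 1.79 and 0.563 in TBI+CB and at 2.53 and 3.25 in TBI. The part of these cells in the inflammatory, myelin and connexin values was not tested.

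**Figure D5:**
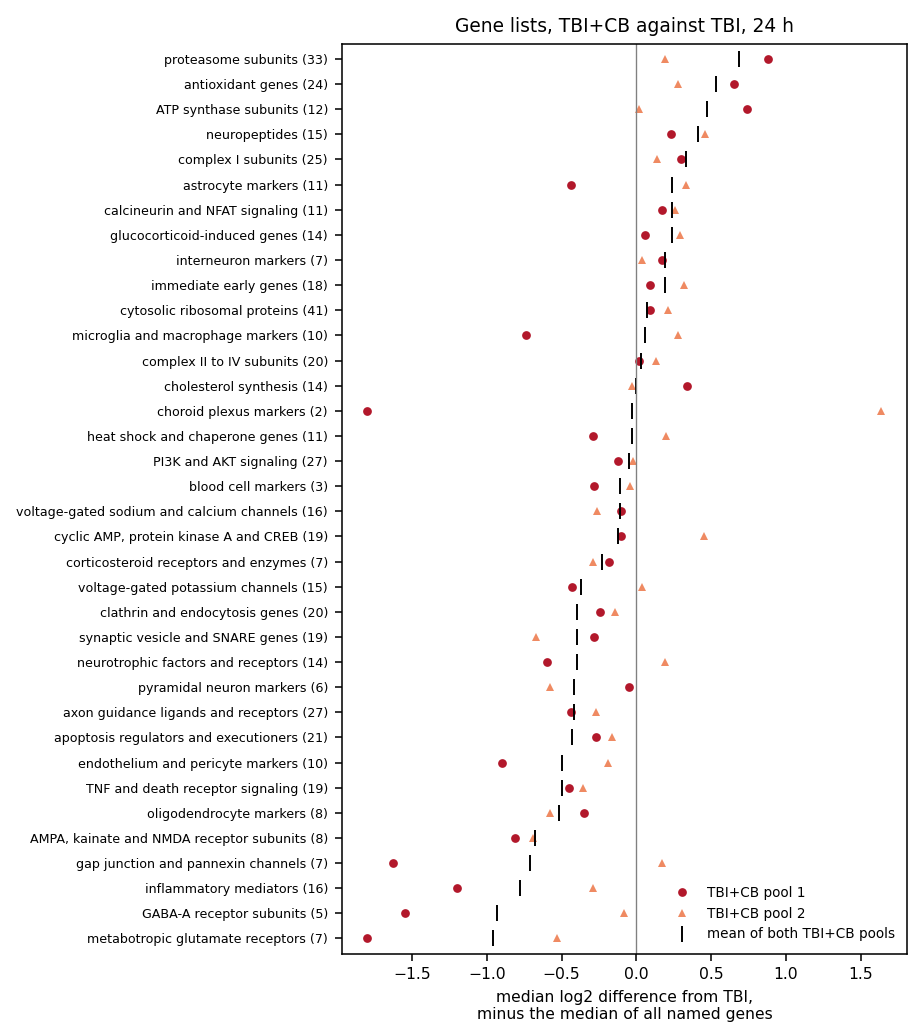
Median log2 difference of each gene list from the TBI mean, minus the median of all named genes (x axis), for TBI+CB pool 1 (circles), pool 2 (triangles) and the mean of the pools (bars), with the number of measured genes in brackets (y axis). Metabotropic glutamate receptors lie lowest and proteasome subunits highest, and for gap junction and GABA-A genes the pools stand far apart.

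The difference between TBI+CB and TBI at 24 h was also set against that at 4 h. The test of this change over time called 0 of 17593 probes (0%), with a smallest adjusted p of 0.492 (limma). The median of the change was 0.25, since the median difference with CB was -0.28 at 4 h and -0.04 at 24 h. The slide runs differ between these times as well. At an unadjusted p under 0.05 the change was above 0 at 649 probes and below 0 at 725.

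Within the slide run of the drugs, TBI+CB was compared with TBI+MT at 24 h. The test called 0 of 17605 probes (0%), with a smallest adjusted p of 0.757 (limma). At an unadjusted p under 0.05, 610 probes were higher in TBI+CB and 269 lower, and 3956 were over 2-fold higher and 1239 over 2-fold lower. The median difference was 0.29. The TBI+MT pools correlated at only 0.735 with each other, less than the TBI+CB pools. The absence of a call does not show that the compounds act alike.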

How the data were processed

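RNA of laser-captured CA3 neurons was measured on 1-colour CodeLink rat arrays. The authors deposited, per array, the raw intensity of each spot, an intensity divided by the array median and a quality letter, and a table of processed values. The normalized column equalled raw intensity over the array median within 5.51e-05, and the processed values were 1.006 to 1.029 times it. The authors' processed values were taken as a normalized ratio to the array median and used as an alternative only.

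Spots with the letters M, I or C (masked, irregular, contaminated) were left out. Raw intensity over the array median was raised to at least 0.1 and taken to log2, and duplicate arrays were averaged. The filter kept 17631 probes that exceeded background on all 4 arrays of 1 or more of the 8 groups, and 17593 had a value in both groups. The 16 pools in 8 groups were fitted with limma 3.58.1 in R 4.3.3 (8 residual and 3.87 prior degrees of freedom), with Benjamini-Hochberg adjustment over all probes and a threshold of 0.05, and a simulation with known changes was used to test the fit. With 2 pools a group, the number of pools limits the precision, and p-values measure the spread between pools. The model was fitted to log2 values because the deposited values are intensities, and no intervals from counts apply.

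Where no array of a group was above background, the fold is a lower bound. It sets the mean of the bright group against, per array of the dim group, the higher of the lowest signal above background and the probe's own.

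Of 33849 probes, 16878 had 1 symbol from the platform annotation, 54 took theirs from the scanner file and 16917 stayed unnamed, 182 of them because they had several, and 16834 symbols were updated through RefSeq. A gene's probe was the one with the highest mean over all pools, but the 15 genes of smallest p on each side were picked by probe, and those of Chst2, Erlec1, Inpp5j, Kcnk2, Klhl11 and Psmb3 are not the brightest of their gene at 24 h. Named were the measured corticosteroid and gap junction genes and the study's 24 h pathway genes, on each side the 15 genes of smallest p whose TBI+CB pools lay on 1 side of both TBI pools (above background on all arrays of TBI+CB or of TBI), up to 4 of smallest p per list and the brightest marker per cell type, 181 genes in all, of which not all are described. The members and gene lists were chosen with earlier results of these data known, and other genes after their values were seen. Slide runs were inferred from slide identifiers in the file headers. Alternatives changed scaling, floor, filter, arrays, groups in the fit, the moderation and the pools.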

Additional observations from a re-analysis of the deposited data

How the results depend on the processing

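With 2 pools a group, 1 pool decides most counts. Without 1 pool at a time, probes called ranged from 0 to 15, probes at an unadjusted p under 0.05 from 125 to 878 higher and from 352 to 2039 lower, probes over 2-fold from 1109 to 6726 higher and from 2369 to 5171 lower, and those also without overlap from 1069 to 6674 and from 2351 to 5126. The 15 calls came without TBI+CB pool 1 and the 6726 without TBI+CB pool 2. The change over time and TBI+CB against TBI+MT each gave 0 to 1 calls. Other settings called 1 probe (75th percentile scaling, centring on probes above background on all 32 arrays, a floor of 0.5, no filter, replicates within 2-fold, array a alone, duplicate correlation), 2 (quantile normalization, trend and robust moderation) or 4 (array b alone). Named among these were only Rsl1d1 and Lin54, whose spots were masked. TBI+CB against TBI+MT gave 3 calls on array b and 1 with duplicate correlation, and the change over time 1 under quantile normalization and 2 with duplicate correlation.

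At an unadjusted p under 0.05, higher probes numbered 500 with 75th percentile scaling, 648 with centring and 212 with duplicate correlation (1305 lower), and lower probes 679 with centring and 491 with the 24 h groups alone. Filters changed the number of probes tested. Over probes above background on all 32 arrays the counts were 19 higher and 419 lower at that p, 266 and 660 over 2-fold, and 217 and 625 without overlap. On all 8 arrays they were 28 and 374, 933 and 762, and 746 and 718. With replicates within 2-fold they were 73 higher and 1095 lower at that p, and 245 and 963 over 2-fold, all without overlap. With no filter they were 619 and 1323, 3972 and 5076, and 2861 and 4078. The median of TBI+CB pool 1 was -0.26 with no filter and -0.56 with replicates within 2-fold. The cause of these moves was not tested.

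Directions turned for 16 named genes, none past the threshold. Glul was 0.1 under quantile normalization, and on array a Crhbp was -0.34 and Hsp90ab1 0.21. Without 1 pool at a time the lowest and highest differences were -0.69 and 0.22 for Cldn5, -1.38 and 1.16 for Cnp, -1.09 and 1.82 for Crhbp, -0.16 and 0.33 for Csf1r, -0.99 and 0.62 for Fkbp4, -0.53 and 0.19 for Gad1, -0.15 and 2.54 for Gja1, -0.42 and 0.31 for Glul, -1.21 and 0.21 for Grik4, -0.52 and 2.32 for Map2k1, -0.86 and 0.23 for Ncoa1, -0.4 and 0.63 for Panx2, -0.22 and 0.97 for Rcan1, -0.86 and 4.3 for Ttr and -0.22 and 0.63 for Tyrobp. Same-numbered TBI+CB and TBI pools deviated with a correlation of -0.13, and over the 28 pairs of groups it ran from -0.57 to 0.562. This value cannot decide whether the numbers pair the pools. With the replicate block 319 probes were higher and 917 lower at an unadjusted p under 0.05, with the TBI+CB numbers crossed, added after seeing the data, 380 and 1038, and 0 were called in both. Leaving out masked probes or those with discordant duplicates, also added after seeing the data, called 0.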

Other observations

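The genes below were chosen after their values were seen. The 4 immediate early genes that lay above both TBI pools were read on all 8 arrays. Rgs2, a brake on G protein signaling, stood at 45.7 and 38.5 in TBI+CB and at 13.3 and 11.9 in TBI (1.74, SE 0.98, adjusted p = 0.602, limma). Klf10, a zinc finger factor, stood at 32 and 24.9 in TBI+CB and at 9.33 and 9.13 in TBI (1.61, SE 0.97). Egr1, a transcription factor that follows synaptic activity, stood at 79.4 and 40.2 in TBI+CB and at 25.5 and 24.2 in TBI (1.19, SE 0.98). Homer1, a scaffold of postsynaptic receptors, stood at 109 and 66.9 in TBI+CB and at 44 and 37.7 in TBI (1.07, SE 1.02). In all 4 genes TBI+MT pool 2 and Sham pool 1 also exceeded both TBI pools, with Rgs2 at 36.6 and 22.8 in these pools, and TBI+MT pool 1 was the lowest of the 8 pools, with Rgs2 at 3.24.

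Thy1, an abundant surface protein of neurons, stood at 18.4 and 800 in TBI+CB and at 1700 and 1540 in TBI (-3.74, SE 1.28, adjusted p = 0.59, limma). The duplicate arrays of TBI+CB pool 1 read 643, a saturated spot, and 0.526, a spot not above background, while those of pool 2 read 784 and 815.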
